A study of Mus musculus with 4 samples.

Results

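The genes described here encode the enzymes and transporters of glycolysis, its lactate and pyruvate exits and the pentose phosphate pathway. The set was a given list of 39 mouse gene symbols, and 34 of them had a probe set with a single gene name, out of 19938 genes measured in that way. Gpi1, Pfkfb1, Gapdh, Eno1 and G6pdx are not analysed here, and the probe sets that name Gapdh also name several related genes. A gene with several probe sets is represented by the brightest of them, judged by the mean of the 4 arrays. Transcripts were measured on Affymetrix whole-transcript arrays, and each value is a log2 signal, so a difference of 1 is a 2-fold change.

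All cells came from bone marrow of C57BL/6 mice. Pooled lymphoid-primed multipotent progenitors (LMPPs), wild type by their label, were sorted as Lineage marker-Sca+kit+Flt3high. They were measured on 1 array after 48 hours in DMEM-based stimulation medium with IL-3, IL-6, SCF and Flt3-ligand. Tcf1 cells were LMPPs transduced with the Tcf1-VEX retrovirus and grown on OP9 stroma, a bone marrow stromal line, and 2 arrays, biological replicates by their labels, measured them. Control cells were LMPPs transduced with the empty VEX retrovirus and grown on OP9 stroma expressing the Notch ligand DL4, and were measured on 1 array. Both cultures also had the 48 hours in stimulation medium with the same cytokines. On stroma they received IL7 and Flt3L in MEMa medium and were passaged on day 6. They were sorted on day 10 as living CD45.2+Mac1-Gr1-Thy1+CD25+ cells. Vector and stroma thus changed together between the cultures. LMPPs differed from both in the medium and cytokines of the stroma culture, stroma, culture time, sort and, by the labels, virus, whose effects cannot be told apart.

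Glycolysis splits glucose into pyruvate, which either becomes lactate and leaves the cell or enters mitochondria through the pyruvate dehydrogenase complex. The pentose phosphate pathway branches off near the start and supplies NADPH and ribose for nucleotides. Proliferating lymphoid progenitors run both pathways at a high rate, and Hif1a, Myc and the PI3K-mTOR axis are known activators of many of the genes.

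Array medians over the 19938 genes lay between 7.47 and 7.59, and the number of arrays limits the precision. Of 8 T lineage markers, 6 were higher in Tcf1 cells than in LMPPs, the sort markers Thy1 and Il2ra (CD25) among them, but Cd3e read 7.46 and 7.42 in Tcf1 cells against 10.41 (1 array) in control cells. By the test behind these marker counts, described below, 1.75% of all genes were higher and 1.31% lower in Tcf1 cells than in LMPPs. The 2 Tcf1 arrays differed by a median of 0.16 over the 34 genes and by 0.15 over all genes, in absolute log2 units. No pathway gene was 2-fold apart between these replicates, where 0.326% of all genes were. Replicate 2 read above replicate 1 for 28 of the 34 genes (82.4%), as it did for 67.9% of all genes and for 83.7% of the 4985 genes above the 75th percentile of mean signal. LMPP markers (6 genes, log2 of the summed signal) read 14.30 in LMPPs, 13.74 and 13.84 in Tcf1 cells and 12.08 in control cells. Of 10 stromal markers, 4 were higher in Tcf1 cells than in LMPPs, with sums of 10.97 in LMPPs, 13.30 and 13.43 in Tcf1 cells and 12.87 in control cells. The median difference of the stromal markers from LMPPs was smaller, 0.399 in Tcf1 cells and 0.090 in control cells. The sum of 6 mast cell markers read 9.91 in LMPPs, 11.74 and 11.97 in Tcf1 cells and 12.64 in control cells, with 1 higher in Tcf1 cells than in LMPPs. Their median difference from LMPPs was only 0.012 in Tcf1 cells and -0.088 in control cells, so the sums do not describe most of these markers. The sum of 4 erythroid markers read 10.53 in LMPPs, 8.42 and 8.55 in Tcf1 cells and 8.84 in control cells, with 2 lower in Tcf1 cells. The sum of 5 B lineage markers read 10.56 in LMPPs, 9.05 and 9.11 in Tcf1 cells and 9.90 in control cells, with 1 lower in Tcf1 cells. Their median difference from LMPPs was -0.097 in Tcf1 cells and -0.237 in control cells. The part of these cell types in the values that follow was not tested. With bulk RNA, fewer cells expressing a gene and less RNA per cell cannot be told apart.

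Promoter sequence is shown for 4 of the genes described below, chosen among those whose window holds one of the motifs searched. Windows are the 250 bases before a RefSeq transcription start (assembly GRCm38.p6), 5′ to 3′ on the gene's strand, with motif letters in capitals. Fbp1 lies on chromosome 13 (chr13:62888283-62888532, minus strand), Hk3 on chromosome 13 (chr13:55021386-55021635, minus strand), Ldha on chromosome 7 (chr7:46845554-46845803, plus strand) and Pdk2 on chromosome 11 (chr11:95041372-95041621, minus strand). Ldha and Pdk2 have 2 annotated starts each, of which the one with more matches is printed.
Fbp1: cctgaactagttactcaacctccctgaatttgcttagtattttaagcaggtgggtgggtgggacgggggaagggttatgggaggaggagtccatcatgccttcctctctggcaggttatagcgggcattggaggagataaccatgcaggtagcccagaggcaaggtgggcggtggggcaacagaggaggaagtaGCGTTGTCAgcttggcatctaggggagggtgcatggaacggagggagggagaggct
Hk3: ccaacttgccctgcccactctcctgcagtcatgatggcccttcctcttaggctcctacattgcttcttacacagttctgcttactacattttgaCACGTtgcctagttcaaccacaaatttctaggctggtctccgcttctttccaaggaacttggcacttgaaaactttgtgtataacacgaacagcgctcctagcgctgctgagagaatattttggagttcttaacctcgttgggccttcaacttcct
Ldha: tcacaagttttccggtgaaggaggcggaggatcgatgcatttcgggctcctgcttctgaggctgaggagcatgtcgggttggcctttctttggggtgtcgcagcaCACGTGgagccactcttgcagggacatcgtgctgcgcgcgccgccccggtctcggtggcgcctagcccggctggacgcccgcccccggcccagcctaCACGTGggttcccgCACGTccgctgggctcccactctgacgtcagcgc
Pdk2: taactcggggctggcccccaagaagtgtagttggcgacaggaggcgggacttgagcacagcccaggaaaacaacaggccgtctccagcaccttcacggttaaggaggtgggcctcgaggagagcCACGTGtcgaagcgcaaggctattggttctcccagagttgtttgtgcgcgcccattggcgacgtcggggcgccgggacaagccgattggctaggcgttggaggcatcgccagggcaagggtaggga
The capitals in Ldha, Pdk2 and Hk3 mark ACGTG, the core of the hypoxia response element, and those in Fbp1 mark TGACNNNGC, the core of the antioxidant response element, each on either strand. CACGTG, the E-box that Myc can bind, holds ACGTG on both strands and occurs in 2 places in Ldha and 1 in Pdk2.

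ACGTG was found in 19 of 48 windows of the pathway genes (39.6%), against 16.6% of all 32851 windows of the same length. The windows belong to 33 genes, since a gene can have several starts. Slc2a3 had no promoter entry and was not searched. CACGTG was found in 6 (12.5%, against 6.02% of all windows), and TGACNNNGC in 4 (8.33%, against 10.2%). No match to these motifs was present in the windows of Tpi1 or Pdk1. A match is a description of letters, not of a bound factor.

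Between LMPPs and Tcf1 cells, 1 of the 34 genes changed past the test and it fell. It was the glucose transporter gene Slc2a3, and 33 did not pass, where 3.06% of all genes passed (1.31% lower and 1.75% higher in Tcf1 cells). The test was moderated limma, and a gene passed at an adjusted p (Benjamini-Hochberg, all genes) under 0.05. At an unadjusted p under 0.05 in limma, 12 of the 34 genes were lower and 2 higher in Tcf1 cells. Of all 19938 genes, 1838 were lower and 1062 higher by that rule, and the bright genes were not counted apart. The median difference of the 34 genes was -0.19, against 0.005 for all genes and -0.118 for genes above the 75th percentile of mean signal. Without Tcf1 replicate 1 the median of the 34 genes was -0.118, and after renewed quantile normalization it was -0.129. The median of the bright genes without replicate 1 was not computed, and replicate 2 read a median of 0.127 above replicate 1 in them.

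Glucose enters blood cells mainly through Slc2a1 (GLUT1) and Slc2a3 (GLUT3). Slc2a3 read 9.41 in the LMPP array, 7.99 and 8.25 in Tcf1 replicates 1 and 2, and 8.57 in the control array. The LMPP array was the highest and both Tcf1 arrays lay below the control array. Slc2a3 fell by 1.29 on the log2 scale in Tcf1 cells against LMPPs, a 2.44-fold change (SE 0.18, adjusted p = 0.0142, limma). Between Tcf1 and control cells its difference of -0.45 did not pass (adjusted p = 0.323, limma). Slc2a1 read 10.86 in LMPPs, 10.64 and 10.75 in Tcf1 cells and 10.64 in control cells, and did not pass in either comparison.

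Hexokinases trap glucose in the cell by phosphorylation, and Hk3 is the form best known from myeloid cells. Hk3 read 8.60 in the LMPP array, 9.14 and 9.16 in the Tcf1 arrays and 7.74 in the control array. The Tcf1 arrays were close to each other and above both other arrays. Hk3 was higher in Tcf1 cells than in control cells by 1.41, or 2.65-fold (SE 0.16, adjusted p = 0.00493, limma). Against LMPPs the difference of 0.55 did not pass (adjusted p = 0.159, limma).

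Macrophage markers had the same order of groups as Hk3 in their summed signal. The neutrophil sum differed from that order only between Tcf1 cells and LMPPs. Of 10 macrophage markers, 8 were higher in Tcf1 than in control cells, where 1.9% of all genes were. The others, Msr1 (0.97) and C1qa (0.16), did not pass. Against LMPPs 6 of the 10 were higher in Tcf1 cells and 0 lower, where 1.75% and 1.31% of all genes were. The summed macrophage signal (log2 of the sum of linear signals) was 12.08 in LMPPs, 13.33 and 13.69 in Tcf1 cells and 10.61 in control cells. Of 8 neutrophil markers, 4 were higher in Tcf1 than in control cells, but against LMPPs 1 was higher and 5 were lower. The neutrophil sums were 13.90 in LMPPs, 13.10 and 12.95 in Tcf1 cells and 11.31 in control cells. The arrays give no value of 0 for any marker, and C1qa read between 6.64 and 6.83 on all 4 arrays. Their part in the Hk3 difference was not tested.

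Hk2, the inducible hexokinase, spanned 8.68 to 9.03 over the 4 arrays. Hk1, the widespread form, had 2 probe sets that did not behave alike. The one chosen by the rule, annotated through a single mRNA record, read 13.04 in LMPPs, 13.08 and 12.94 in Tcf1 cells and 13.05 in control cells. The other, annotated through RefSeq transcripts, read 9.84, 9.85 and 10.10, and 10.89 in control cells, which put control cells 1.05 above LMPPs on the log2 scale. The choice of probe set thus decides whether Hk1 counts as 2-fold apart between these 2 arrays.

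Phosphofructokinase commits sugar to glycolysis and has liver (Pfkl), muscle (Pfkm) and platelet (Pfkp) forms. Pfkp read 10.02 in LMPPs, 9.30 and 9.32 in Tcf1 cells and 9.02 in control cells. Pfkl read 9.96 in LMPPs against 9.32, 9.37 and 9.29 in the other arrays. For both genes the LMPP array was the highest. The differences of Tcf1 cells from LMPPs, -0.71 for Pfkp (adjusted p = 0.0785, limma) and -0.61 for Pfkl (adjusted p = 0.119, limma), did not pass, and both passed after median centring of the arrays (adjusted p = 0.021 and 0.0373, limma). Over genes above the 25th percentile of mean signal, Pfkp also passed and Pfkl did not. Pfkm differed from LMPPs by -0.23 in Tcf1 cells and by -0.28 in control cells.

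Pfkfb2, Pfkfb3 and Pfkfb4 make and remove fructose 2,6-bisphosphate, the main allosteric activator of phosphofructokinase. In the control array they read 0.425 (Pfkfb2), 0.55 (Pfkfb3) and 0.21 (Pfkfb4) above LMPPs, and none passed between Tcf1 cells and either other group. Pfkfb3 read 8.92 in LMPPs, 9.06 and 9.27 in Tcf1 cells and 9.47 in control cells.

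The largest difference of any of the 34 genes was in Fbp1, which encodes fructose-1,6-bisphosphatase, the enzyme of gluconeogenesis that runs opposite to phosphofructokinase. Fbp1 read 6.38 in the LMPP array, 6.04 and 6.44 in the Tcf1 arrays and 9.86 in the control array. LMPPs and Tcf1 cells lay together and the control array lay far above them. Tcf1 cells were lower than control cells by a measured log2 difference of -3.62, or 12.3-fold in signal (SE 0.21, adjusted p = 0.000396, limma). The control signal was 11.2-fold above that of LMPPs, 1 array against 1 and without a test. In rank among all genes of the same array, Fbp1 stood at the 29.5th percentile in LMPPs, the 22.0th and 29.1st in Tcf1 cells and the 82.4th in control cells. No detection calls were used here, so the low readings of Fbp1 are not shown to be above background. Where they are not, both folds are only lower bounds, and the same holds for differences of other genes from low readings (Nqo1, Epas1, Ppargc1a and Cd3e among them).

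**Figure D1:**
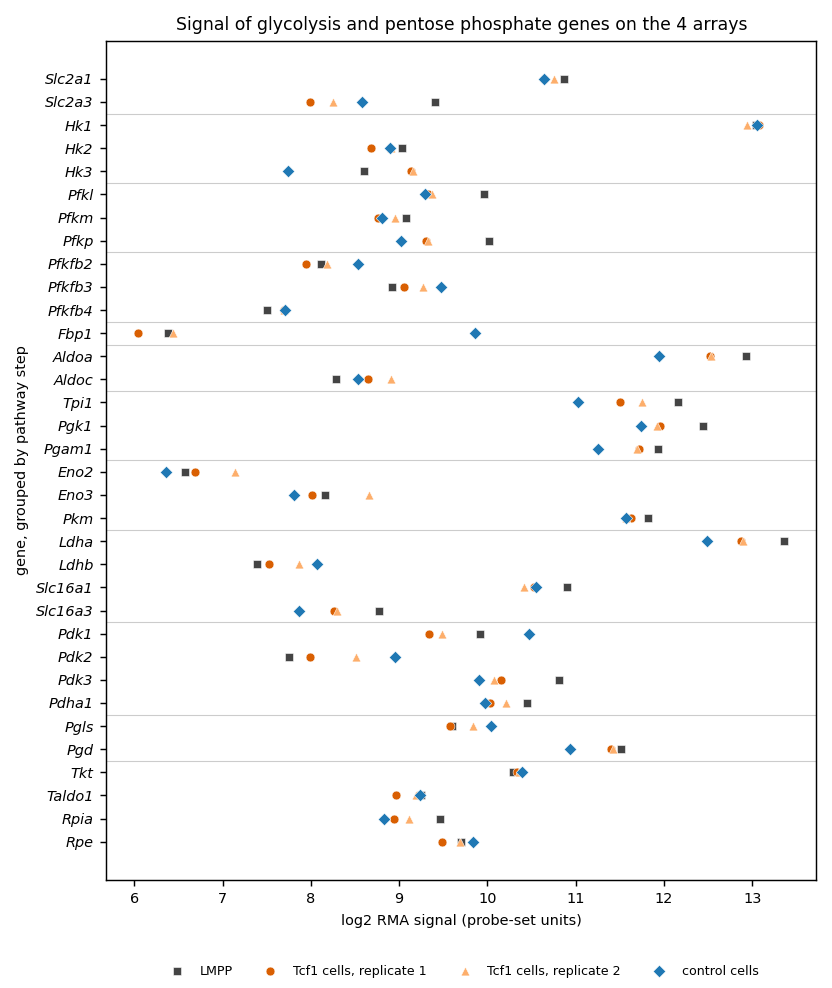
Log2 RMA signal (horizontal axis) of the 34 genes with values, grouped by pathway step, with 1 symbol per array: LMPP, Tcf1 replicates 1 and 2, and control. The control array of Fbp1 (9.86) stands apart from the other arrays (6.04 to 6.44).

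Aldolase and the triose phosphate enzymes form the middle of glycolysis. Aldoa read 12.93 in LMPPs, 12.52 and 12.53 in Tcf1 cells and 11.95 in control cells. Tpi1, triose phosphate isomerase, read 12.16 in LMPPs, 11.50 and 11.76 in Tcf1 cells and 11.03 in control cells. Pgk1, which makes the first ATP of the pathway, read 12.44 in LMPPs, 11.96 and 11.92 in Tcf1 cells and 11.74 in control cells. Pgam1, phosphoglycerate mutase, followed the same order, with 11.93 in LMPPs, 11.72 and 11.69 in Tcf1 cells and 11.26 in control cells. In these genes both Tcf1 arrays lay between a higher LMPP array and a lower control array. None of them passed between Tcf1 cells and LMPPs or control cells with a constant prior spread. With a prior spread that followed mean signal, Aldoa, Tpi1 and Pgk1 passed against LMPPs and Aldoa, Tpi1 and Pgam1 against control cells. Aldoc, the brain-type aldolase, read highest in Tcf1 cells (8.64 and 8.91) without passing.

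Pgk1 and Pgam1 had 3 probe sets each, and the differences between groups agreed to within 0.05 among the probe sets of a gene. A pair of them had identical values on every array for each gene, so these are not separate measurements, and signal from near-identical gene copies cannot be told apart.

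Pkm, pyruvate kinase, read 11.82 in LMPPs, 11.63 and 11.57 in Tcf1 cells and 11.57 in control cells. Eno3, the muscle enolase, had the widest gap between the Tcf1 replicates of the 34 genes (8.01 and 8.66), with 8.16 in LMPPs and 7.81 in control cells. Eno2, the neuronal form, read 6.57 in LMPPs, 6.69 and 7.14 in Tcf1 cells and 6.36 in control cells. Neither passed in a comparison with Tcf1 cells.

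Lactate is made by Ldha and carried out of the cell by Slc16a1 (MCT1) and Slc16a3 (MCT4). Ldha read 13.36 in LMPPs, 12.87 and 12.89 in Tcf1 cells and 12.49 in control cells. Slc16a3 read 8.77, then 8.26 and 8.29, then 7.86 in the same order of groups. Slc16a1 read 10.90 in LMPPs and between 10.41 and 10.56 in the other arrays. Ldhb, whose subunit favours the reverse reaction, had the opposite order on the probe set used, with 7.39 in LMPPs, 7.52 and 7.87 in Tcf1 cells and 8.06 in control cells. Its other probe set read 7.13 in LMPPs, 6.89 and 7.51 in Tcf1 cells and 7.73 in control cells, so that Tcf1 replicate 1 lay below the LMPP array. None of these genes passed between Tcf1 cells and either other group in limma, with adjusted p = 0.215 for Ldha against LMPPs and 0.335 against control cells. Ldha did pass in both when the prior spread of limma followed mean signal (adjusted p = 0.000173 and 0.000686).

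The pyruvate dehydrogenase kinases Pdk1, Pdk2 and Pdk3 switch off entry of pyruvate into mitochondria, and Pdha1 is the enzyme subunit they phosphorylate. Pdk1 read 9.91 in LMPPs, 9.34 and 9.49 in Tcf1 cells and 10.47 in control cells. Both Tcf1 arrays lay below both other arrays. Pdk1 was lower in Tcf1 than in control cells, with a log2 difference of -1.05, or 2.07-fold (SE 0.17, adjusted p = 0.0178, limma). Pdk2 read 7.76 in LMPPs, 7.99 and 8.52 in Tcf1 cells and 8.96 in control cells, and its difference of -0.70 between Tcf1 and control cells did not pass (adjusted p = 0.215, limma) but did after median centring (adjusted p = 0.0462, limma). Pdk3 had the reverse order, with 10.81 in LMPPs, 10.15 and 10.07 in Tcf1 cells and 9.91 in control cells. Its difference of -0.70 from LMPPs in Tcf1 cells did not pass (adjusted p = 0.0852, limma), and it passed over genes above the 25th percentile of mean signal (adjusted p = 0.0315, limma). Pdk3 also passed against LMPPs after median centring. Pdha1 ranged from 9.98 in control cells to 10.45 in LMPPs.

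In the pentose phosphate pathway, Pgls and Pgd carry out the oxidative steps after G6pdx. Pgd, which makes NADPH and ribulose 5-phosphate, read 11.51 in LMPPs, 11.40 and 11.42 in Tcf1 cells and 10.94 in control cells. Pgls read highest in the control array (10.04), with 9.60 in LMPPs and 9.57 and 9.83 in Tcf1 cells. Of the non-oxidative enzymes, Tkt (transketolase) spanned 10.29 to 10.40 over all arrays and Taldo1 (transaldolase) 8.96 to 9.24. Rpia, ribose 5-phosphate isomerase, read 9.46 in LMPPs, 8.94 and 9.11 in Tcf1 cells and 8.83 in control cells. Rpe, which interconverts the pentose phosphates, read 9.70 in LMPPs, 9.49 and 9.69 in Tcf1 cells and 9.83 in control cells. None of the 6 measured pentose phosphate genes passed in a comparison with Tcf1 cells in limma. At an unadjusted p under 0.05 in limma, Rpia was lower in Tcf1 cells than in LMPPs, as were 1838 of all 19938 genes. Under the same rule Pgd was higher than in control cells, as were 1141 of all genes. Pgd passed against control cells when the prior spread followed mean signal (adjusted p = 0.0438, limma).

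**Figure D2:**
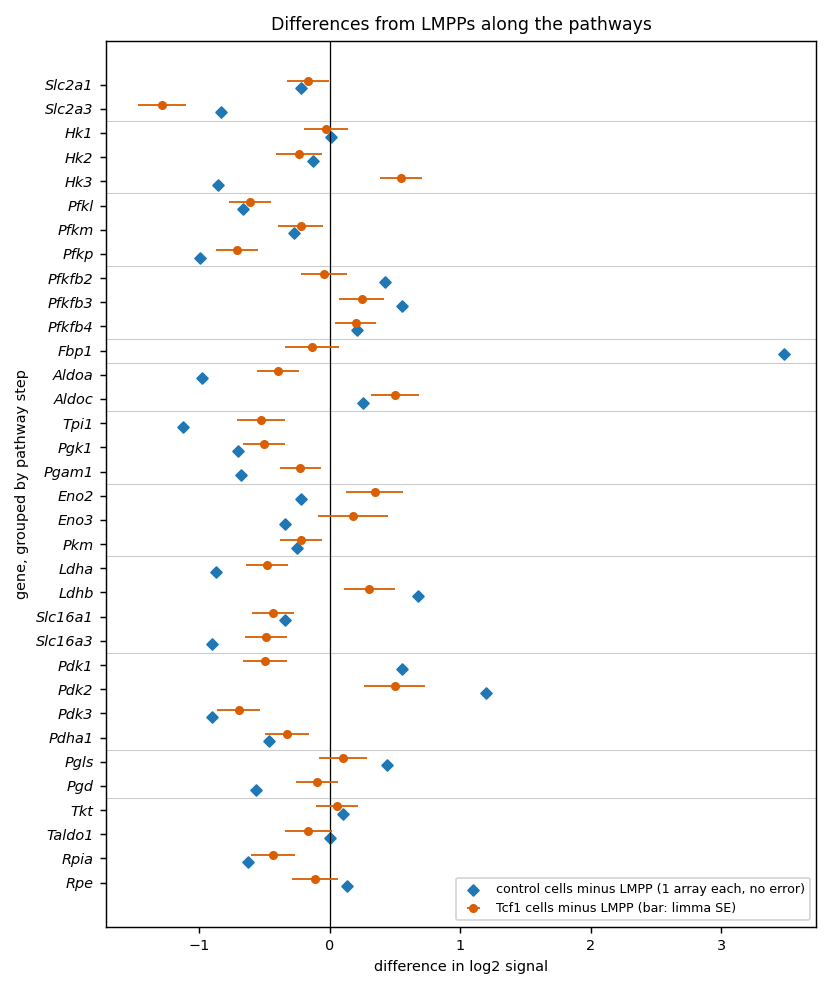
Difference in log2 signal from the LMPP array (horizontal axis) for Tcf1 cells (circles, mean of 2 arrays with limma SE) and control cells (diamonds, 1 array, no error), genes grouped by pathway step. Slc2a3 has the lowest Tcf1 value (-1.29), and the control values of Fbp1 (3.48) and Pdk2 (1.20) are the highest.

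Between Tcf1 cells and control cells, 3 of the 34 genes passed, where 4.38% of all genes did. Hk3 was higher (1.9% of all genes were), and Fbp1 and Pdk1 were lower (2.49% of all genes were). At an unadjusted p under 0.05 in limma, 8 of the 34 were higher and 5 lower, where 1141 and 1668 of all 19938 genes were. The median difference of the set was 0.052, against 0.017 for all genes and -0.058 for genes above the 75th percentile of mean signal. Renewed quantile normalization gave 0.145 and median centring 0.010, and it was 0.094 or 0.028 without Tcf1 replicate 1 or 2.

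These counts depended on how the spread was modelled. When limma let the prior spread follow mean signal, 5 genes were lower in Tcf1 cells than in LMPPs (Slc2a3, Aldoa, Tpi1, Pgk1 and Ldha), where 2.14% of all genes were (4.69% in either direction, 2.55% higher). Under the same setting 6 were higher than in control cells (Hk3, Aldoa, Tpi1, Pgam1, Ldha and Pgd), where 2.84% of all genes were, and 2 were lower, where 3.37% were (6.2% in either direction). No gene of the set passed without moderation or when all 35399 probe sets entered the fit. The residual spread has 1 degree of freedom, which the Tcf1 pair supplies, and the lone LMPP and control arrays are assumed to vary like it.

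Between control cells and LMPPs, 1 array against 1 and without a test, 3 of the 34 genes were at least 2-fold apart, where 5.53% of all genes were. Fbp1 and Pdk2 were higher in control cells by 3.48 and 1.20, where 3.17% of all genes were. Tpi1 was lower (-1.13), where 2.36% of all genes were. Just outside the 2-fold line stood Pfkp (-0.998) and Aldoa (-0.979). At 1.5-fold, 12 genes were lower in control cells (35.3%), where 6.98% of all genes and 10.7% of the genes above the 75th percentile of mean signal were. They were Slc2a3, Hk3, Pfkl, Pfkp, Aldoa, Tpi1, Pgk1, Pgam1, Ldha, Slc16a3, Pdk3 and Rpia. At 1.5-fold 3 were higher (8.82%), Fbp1, Ldhb and Pdk2, where 6.53% of all genes were.

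The typical size of the difference between the control and LMPP arrays was also larger in the pathway set. Its median absolute difference was 0.55, against 0.16 for all genes and 0.29 for the genes above the 75th percentile, to which 18 of the 34 belong. The signed median was -0.265, against -0.014 for all genes, and the other scalings gave -0.262 (quantile) and -0.261 (median).

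**Figure D3:**
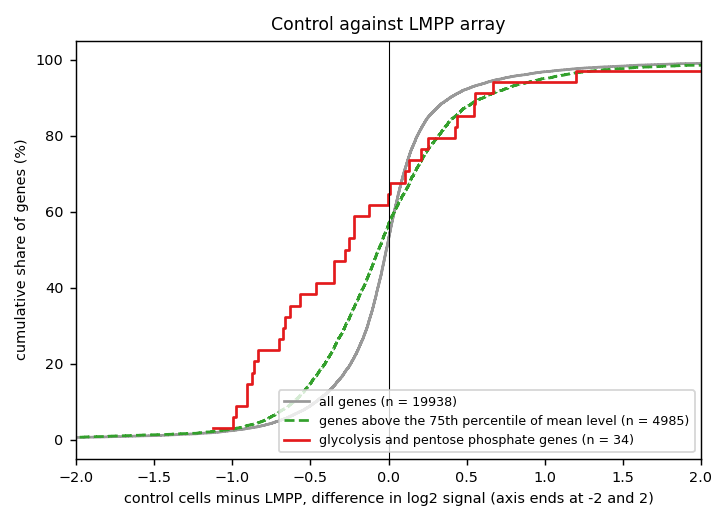
Cumulative share of genes (vertical axis, percent) by the difference in log2 signal between the control and the LMPP array (horizontal axis) for the 34 pathway genes, for all 19938 genes and for the 4985 genes above the 75th percentile of mean signal. The axis ends at differences of -2 and 2, which leaves out Fbp1 (3.48), and 12 of the 34 genes are at least 1.5-fold lower in control cells.

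The order of the arrays was counted gene by gene. Both Tcf1 arrays lay between a higher LMPP and a lower control array in 13 of the 34 genes (38.2%), where 11.5% of all genes and 20.9% of the genes above the 75th percentile did. They were Pfkl, Pfkp, Aldoa, Tpi1, Pgk1, Pgam1, Pkm, Ldha, Slc16a3, Pdk3, Pdha1, Pgd and Rpia. The opposite order, with the control array highest, held for 5 genes (14.7%, against 9.51% of all genes and 12.9% of the bright genes), which were Pfkfb3, Pfkfb4, Ldhb, Pdk2 and Tkt, with Ldhb there by the brighter of its probe sets only. Both Tcf1 arrays were below the LMPP array in 21 genes (61.8%), where 36.8% of all genes were but 57% of the genes above the 75th percentile, a share near that of the bright genes. Both were above the LMPP array in 8 genes (23.5%), where 35.8% of all genes and 23.5% of the bright genes were. Both were above the control array in 17 genes (50%), where 38.6% of all genes and 31.7% of the bright genes were. Both were below the control array in 13 genes (38.2%), where 34.2% of all genes and 47.6% of the bright genes were. The control array was below the LMPP array in 22 genes (64.7%), where 52.7% of all genes and 56.6% of the bright genes were. It was above the LMPP array in 12 genes (35.3%), where 47.2% of all genes and 43.4% of the bright genes were.

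Genes around the pathways were counted from lists. At an adjusted p under 0.05 in limma, 1.75% of all genes were higher and 1.31% lower in Tcf1 cells than in LMPPs. Against control cells 1.9% were higher and 2.49% lower. At an unadjusted p under 0.05 in limma, 1838 of all 19938 genes were lower and 1062 higher in Tcf1 cells than in LMPPs. After median centring, 1456 of all genes passed against LMPPs and 1646 against control cells, in either direction. These totals were not split by direction, so the higher or lower counts of a list after centring have no matching share. Of 29 other glycolysis and gluconeogenesis genes, none passed between Tcf1 cells and LMPPs in limma (2 lower at an unadjusted p under 0.05), and Slc2a6, a further sugar transporter, was higher in Tcf1 than in control cells by 1.08. The median of the 29 genes was -0.03 against LMPPs and 0.006 against control cells. The median against control cells fell below 0 under both other scalings (-0.028 and -0.036). After median centring 1 gene was lower than in LMPPs, and 2 were higher and 2 lower than in control cells. Of 13 other pentose phosphate and ribose genes, Pgm1, which joins glycogen to glycolysis, rose by 1.14 in Tcf1 cells against LMPPs, from 9.21 to 10.24 and 10.45, and control cells read 10.34. Prps1, which makes the activated ribose for nucleotides, fell by 0.94 against LMPPs, from 10.99 to 9.97 and 10.12, with 9.76 in control cells. After median centring 3 of this list were lower than in LMPPs.

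Of 11 genes of the pyruvate dehydrogenase complex and pyruvate import, none passed in limma and 4 were lower against LMPPs at an unadjusted p under 0.05 (median -0.38). Of 16 TCA cycle genes, none passed in limma, with 3 lower at an unadjusted p under 0.05 (median -0.25), and Idh3a and Fh1 read 1.20 and 1.22 lower in control cells than in LMPPs. After median centring 1 gene of the first list and 2 of the second were lower than in LMPPs. Of 22 genes of side branches, none passed against LMPPs in limma (median -0.22). At an unadjusted p under 0.05 in limma 6 were lower, where 1838 of all 19938 genes were. After median centring 4 were lower, where 1456 of all genes passed in either direction. Pygl, glycogen phosphorylase, was higher in Tcf1 than in control cells by 1.16.

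NADPH made by the pentose phosphate pathway feeds glutathione and thioredoxin reduction. Of 21 genes of this group, 2 fell in Tcf1 cells against LMPPs (median -0.39), where 1.31% of all genes did. After median centring 6 fell, where 1456 of all genes passed in either direction. The cystine transporter gene Slc7a11 fell by 1.54, from 9.01 to 7.43 and 7.50, and Gclc, of glutathione synthesis, fell by 0.89. Against control cells, Gclm (0.88), Gpx1 (0.95) and Hmox1 (1.12) were higher in Tcf1 cells and Nqo1 was lower (-3.82 as measured, from Tcf1 readings at the 10.2nd and 20.8th percentiles of genes that may be background, so the size may be a lower bound).

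Nqo1, a quinone reductase that uses NADPH, read 6.44 in LMPPs, 5.26 and 5.94 in Tcf1 cells and 9.42 in control cells. Fbp1 and Nqo1 were thus both high in the control array alone. Nfe2l2, whose protein NRF2 activates Nqo1 and Gclm, read between 10.88 and 11.07 on all arrays. Gclm read 11.71 in LMPPs, 11.02 and 11.13 in Tcf1 cells and 10.19 in control cells. The arrays measured transcripts and not NRF2 protein, and its part in these values was not tested.

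Among 30 regulators of glycolysis, 2 rose in Tcf1 cells against LMPPs, the same 2 were higher than in control cells, and 1 was lower than in control cells. Of all genes, 1.75% rose against LMPPs, 1.9% were higher than in control cells and 2.49% were lower. After median centring 3 regulators were higher and 1 lower than in LMPPs, where 1456 of all genes passed in either direction. Against control cells 4 regulators were then higher and 1 lower, where 1646 of all genes passed. Hif1a, the hypoxia-inducible factor that activates many glycolytic genes, read 11.21 in LMPPs, 12.28 and 12.26 in Tcf1 cells and 11.28 in control cells. It rose by 1.07 against LMPPs (SE 0.16, adjusted p = 0.0183, limma) and was higher than in control cells by 0.997 (adjusted p = 0.0184, limma). Ppargc1a, a coactivator of mitochondrial genes, read 6.65 in LMPPs, 8.49 and 9.03 in Tcf1 cells and 6.90 in control cells, and rose by 2.11 (adjusted p = 0.00631, limma). Epas1 (HIF2 alpha) read 6.67 in LMPPs, 7.04 and 7.18 in Tcf1 cells and 8.90 in control cells, and was lower in Tcf1 than in control cells (-1.79). Myc read between 12.14 and 12.28 (control array) over the arrays and did not pass.

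Of 18 hypoxia response genes outside glycolysis, 2 rose in Tcf1 cells against LMPPs, Vegfa (1.28) and Bhlhe40 (1.52), where 1.75% of all genes did. After median centring 4 rose, where 1456 of all genes passed in either direction. Ndrg1 was lower in Tcf1 than in control cells (-1.26), and Bnip3, which did not pass, read 9.65 in LMPPs, 8.82 and 8.97 in Tcf1 cells and 8.27 in control cells. The list median was -0.009 against LMPPs, or 0.006 after renewed quantile normalization. Of 23 cell cycle genes, none passed in either comparison in limma (3 lower than in LMPPs after median centring). At an unadjusted p under 0.05 in limma, 6 of them were lower against LMPPs (1838 of all 19938 genes) and 0 against control cells (1668 of all genes). Their median was -0.24 against LMPPs and -0.28 for control cells against LMPPs. In the same order, the pathway set gave -0.194 and -0.265, and genes above the 75th percentile of mean signal -0.118 and -0.063. TCA cycle genes gave -0.253 and -0.323, the pyruvate dehydrogenase list -0.381 and -0.366, and the NADPH list -0.393 and -0.428. Other glycolysis genes gave -0.030 and -0.036, regulators -0.080 and -0.004, and the hypoxia list -0.009 and 0.028. The part of the cell cycle genes in the values of the pathway set was not tested.

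**Figure D4:**
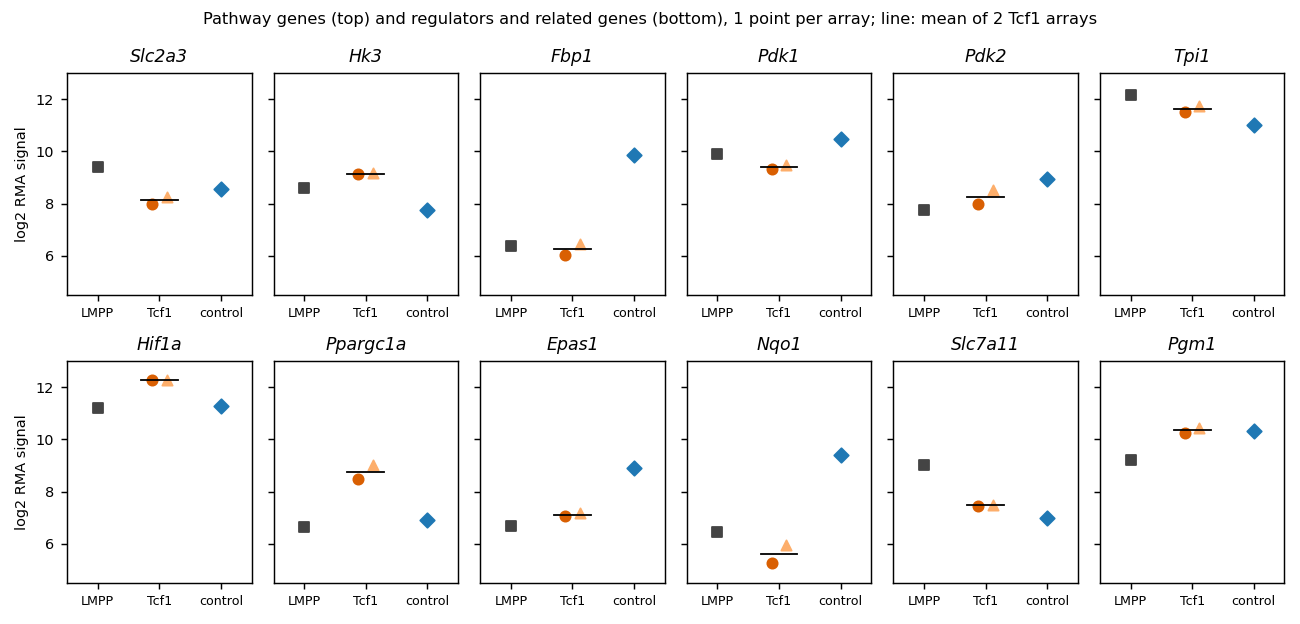
Log2 RMA signal (vertical axis) of 6 pathway genes (top) and 6 genes of the other lists (bottom) in LMPPs, Tcf1 cells and control cells, with 1 point per array and a line at the mean of the 2 Tcf1 arrays. Fbp1 and Nqo1 are high in the control array, Hif1a and Ppargc1a in both Tcf1 arrays, and Slc2a3 and Slc7a11 in the LMPP array.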

How the data were processed

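Per the labels' protocols, kits from Ambion (WT Expression) and Affymetrix (WT Terminal Labeling) prepared 250 ng of RNA from each of 4 samples. The authors deposited log2 signal per probe set, and RMA and Partek 6.5 are named in the submitters' processing notes without parameters. The log base is inferred from RMA and the values (3.44 to 14.45). The genome build was not given in the sources used here.

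Of 35399 probe sets, 21789 had 1 gene name, 1621 several and 11989 none. Entrez numbers linked 21698 to the gene table and renamed 0. With no filter, limma 3.58.1 (R 4.3.3) fitted group means of 19938 genes (1 residual and 5.78 prior degrees of freedom, prior SD 0.141). The fit was run on simulated data in which all 4 arrays of a gene shared the same spread. That run cannot check whether the lone LMPP and control arrays vary like the Tcf1 pair. Control cells against LMPPs had no test. P-values measure only the spread between the 2 Tcf1 arrays. The pathway genes, lists, tests and most alternatives were chosen with earlier results of these data known.

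Genes given in full are those past the test or 2-fold apart. From other lists up to 4 genes past the test are named, and further ones were chosen after their values were seen. Promoter windows came from RefSeq (GRCm38.p6). Alternatives were 2 scalings, a filter on dim genes, the mean of probe sets, all probe sets, an unmoderated test, a trended prior, a 1.5-fold line and leaving out each Tcf1 replicate.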

Additional observations from a re-analysis of the deposited data

How the results depend on the processing

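Of 782 gene values recomputed under an alternative, 16 newly passed, 8 no longer passed, 15 changed sign and 743 were labelled the same. The label meant the same direction and side of the threshold or, without a Tcf1 replicate, a shift below the replicate SD. With 2 replicates that shift is always below the SD, so the 65 and 62 values labelled the same without replicate 1 or 2 show only an unchanged sign. The unmoderated and trended tests leave the differences as they are, so their direction could not change. For Tcf1 cells against LMPPs, the number of pathway genes past the test was 1, all lower, and became 4 after median centring, 3 over genes above the 25th percentile, 5 with a trended prior, and 0 with all probe sets or without moderation. Over all genes the count of 610 became 1456, 1196, 936, 0 and 12 in that order, and 2900 had an unadjusted p under 0.05 in limma. For Tcf1 cells against control cells, 3 pathway genes passed (1 higher, 2 lower), 8 with a trended prior (6 higher), and 0 higher and 0 lower with all probe sets or without moderation. The all-gene count of 874 became 1646 after median centring, 1437 over genes above the 25th percentile, 0 with all probe sets and 12 without moderation, with 2809 at an unadjusted p under 0.05 in limma. The range of adjusted p over the alternatives with all probe sets and without moderation was 0.298 to 0.783 for Slc2a3 against LMPPs and, against control cells, 0.183 to 0.795 for Hk3, 0.13 to 0.8235 for Fbp1 and 0.237 to 0.8235 for Pdk1. The median difference from control cells moved from 0.052 to 0.145 after renewed quantile normalization.

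For control cells against LMPPs, 2 pathway genes were lower past 2-fold after renewed quantile normalization (1 as deposited), and 15 passed a 1.5-fold line (12 lower). The all-gene count of 1102 became 1709 with all probe sets and 2694 at 1.5-fold. Between the values without replicate 1 and without replicate 2, the difference from LMPPs ranged from -0.097 to 0.038 for Hk1, -0.163 to 0.070 for Pfkfb2, -0.332 to 0.062 for Fbp1, -0.144 to 0.500 for Eno3 and -0.030 to 0.233 for Pgls. The difference from control cells likewise ranged from -0.003 to 0.107 for Slc2a1, -0.108 to 0.027 for Hk1, -0.224 to 0.004 for Hk2 and -0.044 to 0.147 for Pfkm. The mean of probe sets gave 0.053 for Hk1 against LMPPs. Renewed quantile normalization gave Hk2 0.021, Pfkfb4 0.035 and Tkt 0.030 against control cells, and median centring gave Pkm -0.009 against control cells and Taldo1 0.001 for control cells against LMPPs. Without replicate 1 or 2 no residual degree of freedom was left, so no test was made. The medians ranged from -0.25 to -0.12 against LMPPs and from 0.03 to 0.09 against control cells, and 2 to 3 genes were 2-fold apart from control cells (Pdk1 not without replicate 1). The causes were not tested, beyond the fewer genes or arrays that some alternatives use by construction. No paired analysis was possible because the LMPP and control groups have 1 array each and carry no replicate number.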
